A study of Mus musculus with 12 samples.

Results

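The insulin-like growth factor 1 (IGF1) axis was followed in the mouse osteosarcoma cell lines Dunn and LM8 through 8 genes: the ligand gene Igf1, the receptor gene Igf1r, and the binding protein genes Igfbp2, Igfbp3, Igfbp4, Igfbp5, Igfbp6 and Igfbp7. These genes were taken by name, and their probes were found through the accession that the array files give for each probe. They are 8 of the 20144 genes that could be matched on the array, and they are read by 12 of its 39429 probes. The study measured gene expression before and after serial passaging. Dunn cells are osteoblastic and metastasise little, and LM8 cells, obtained from Dunn by selection in vivo, metastasise more. Early cells were at passage 25 (Dunn) and passage 24 (LM8), and late cells at passage 86 (Dunn) and passage 91 (LM8). All cells were grown without a further treatment in the same medium with fetal calf serum, and 3 independent replicates of each of the 4 groups gave 12 single-colour Agilent arrays. The late cells descend from the early ones, so each line is 1 culture history.

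IGF1 is a secreted growth factor that signals through the receptor tyrosine kinase IGF1R, its adaptor proteins and the PI3K and MAPK pathways. The IGF binding proteins hold the ligand outside the cell, either keeping it from the receptor or delivering it there, and proteases that cleave them release it. Bone is rich in IGFs and their binding proteins, and osteoblasts make IGFBP5 and IGFBP4, the latter known mainly as an inhibitor of IGF action.

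Levels are given as the log2 of the processed signal minus the log2 of the 75th percentile of that array, so that 0 is the signal of a fairly bright probe on the same array. Values of 1 probe can be compared between arrays, but not with the values of another probe. The 75th percentile itself was 287.2 to 603.0 on the early Dunn arrays and 685.9 to 961.4 on the late Dunn arrays. It was 893.0 to 1316.5 on the early LM8 arrays and 1166.4 to 1903.1 on the late ones. In both lines it was higher in late than in early cells on each slide, so the brightness of the arrays moved with the groups. Between 39.1% and 59.7% of probes were well above background, as marked by the scanner software. Replicate arrays correlated at 0.959 to 0.991 over probes except late Dunn replicate 1, which correlated at 0.918 with both other late Dunn arrays. Early Dunn replicate 1 had the 39.1%, and the local background at spots of the 8 genes was 75 to 92 there. On the other arrays it was 17 to 43.5. The lowest signal well above background was 32.3 on early and 36.45 on late Dunn replicate 1, and 9.59 to 16.67 on the others. Each replicate number marks 1 slide that held 1 array of every group, always at the same position, so that position and group cannot be told apart. Of 8 osteoblast marker genes 7 were measured, and all 7 were well above background on every array that gave a value. Of the macrophage and leukocyte markers, Csf1r and Itgam were well above background on 12 of 12 arrays and Ptprc on 2. Of the endothelial markers Kdr was so on 12, Pecam1 on 7 and Cdh5 on 0, and of the epithelial ones Epcam on 2 and Krt8 and Cdh1 on 0. Of the muscle markers Des was well above background on 10 of 12 arrays and Myod1 and Myog on 0, and Des was higher by 1.87 on the log2 scale in late than in early Dunn cells (unadjusted p = 0.00937, adjusted p = 0.643 in limma). The part of these cell types in the results was not tested. No marker of any list passed an adjusted p of 0.05 in any comparison.

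The genes fell into 2 classes by signal. Igf1, Igf1r, Igfbp4, Igfbp5 and Igfbp6 were well above background on every array that gave a value for them, whereas Igfbp2, Igfbp3 and Igfbp7 were close to background on most arrays. The upstream sequences of the 5 detected genes are shown because their promoters differ in base composition and in the short core motifs they hold. Each is the stretch of 250 bases before the annotated start of the gene, 5′ to 3′ on the strand of the gene, from RefSeq on GRCm38.p6. Capitals mark matches to the letters TATAAA of a TATA box, to the letters of a CCAAT box, or to the letters GGGCGG of a GC box, on either strand.
Igf1, chr10:87860861-87861110 (plus strand): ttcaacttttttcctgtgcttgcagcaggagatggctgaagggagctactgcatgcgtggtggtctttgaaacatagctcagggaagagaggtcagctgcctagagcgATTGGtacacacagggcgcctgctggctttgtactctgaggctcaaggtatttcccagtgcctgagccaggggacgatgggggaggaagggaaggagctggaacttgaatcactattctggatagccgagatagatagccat
Igf1r, chr7:67952007-67952256 (plus strand): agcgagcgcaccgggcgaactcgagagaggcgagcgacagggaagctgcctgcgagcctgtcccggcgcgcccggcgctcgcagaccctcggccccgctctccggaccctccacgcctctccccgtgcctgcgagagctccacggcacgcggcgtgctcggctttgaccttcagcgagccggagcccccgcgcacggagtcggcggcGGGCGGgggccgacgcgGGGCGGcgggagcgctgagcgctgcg
Igfbp4, chr11:99040994-99041243 (plus strand): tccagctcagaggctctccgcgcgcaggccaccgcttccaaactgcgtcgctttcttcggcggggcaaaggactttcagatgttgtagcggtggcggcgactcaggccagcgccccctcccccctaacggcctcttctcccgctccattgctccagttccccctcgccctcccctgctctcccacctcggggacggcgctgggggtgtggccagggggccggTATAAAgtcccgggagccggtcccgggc
Igfbp5, chr1:72874866-72875115 (minus strand): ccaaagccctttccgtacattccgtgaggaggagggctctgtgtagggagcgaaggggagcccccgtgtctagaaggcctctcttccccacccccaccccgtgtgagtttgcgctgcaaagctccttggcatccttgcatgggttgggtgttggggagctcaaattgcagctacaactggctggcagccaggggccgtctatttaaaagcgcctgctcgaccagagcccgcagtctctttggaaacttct
Igfbp6, chr15:102143936-102144185 (plus strand): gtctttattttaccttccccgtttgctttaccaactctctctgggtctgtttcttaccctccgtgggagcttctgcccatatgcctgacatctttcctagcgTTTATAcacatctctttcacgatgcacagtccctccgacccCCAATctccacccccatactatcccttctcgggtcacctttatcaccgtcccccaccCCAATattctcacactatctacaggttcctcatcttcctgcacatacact
The Igf1r stretch had 77.6% G and C and the Igfbp4 stretch 69.2%, against 58.8% for Igfbp5, 52.8% for Igf1 and 49.6% for Igfbp6. The median over all 32851 promoters of this length was 52.4%. Igfbp4 and Igfbp6 each held 1 match to TATAAA, which 12.4% of all promoters hold. Igfbp6 held 2 matches to CCAAT and Igf1 held 1, and 33.8% of promoters hold this motif. Igf1r alone of the 5 held GC boxes, 2 matches of a motif found in 32.7% of promoters. No match to the 3 motifs was found in the Igfbp5 stretch. These matches describe letters in the window only. Igfbp5 and Igfbp2 are neighbouring genes on chromosome 1. Igfbp5 was well above background on 12 of 12 arrays and Igfbp2 on 2 of 12.

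**Figure D1:**
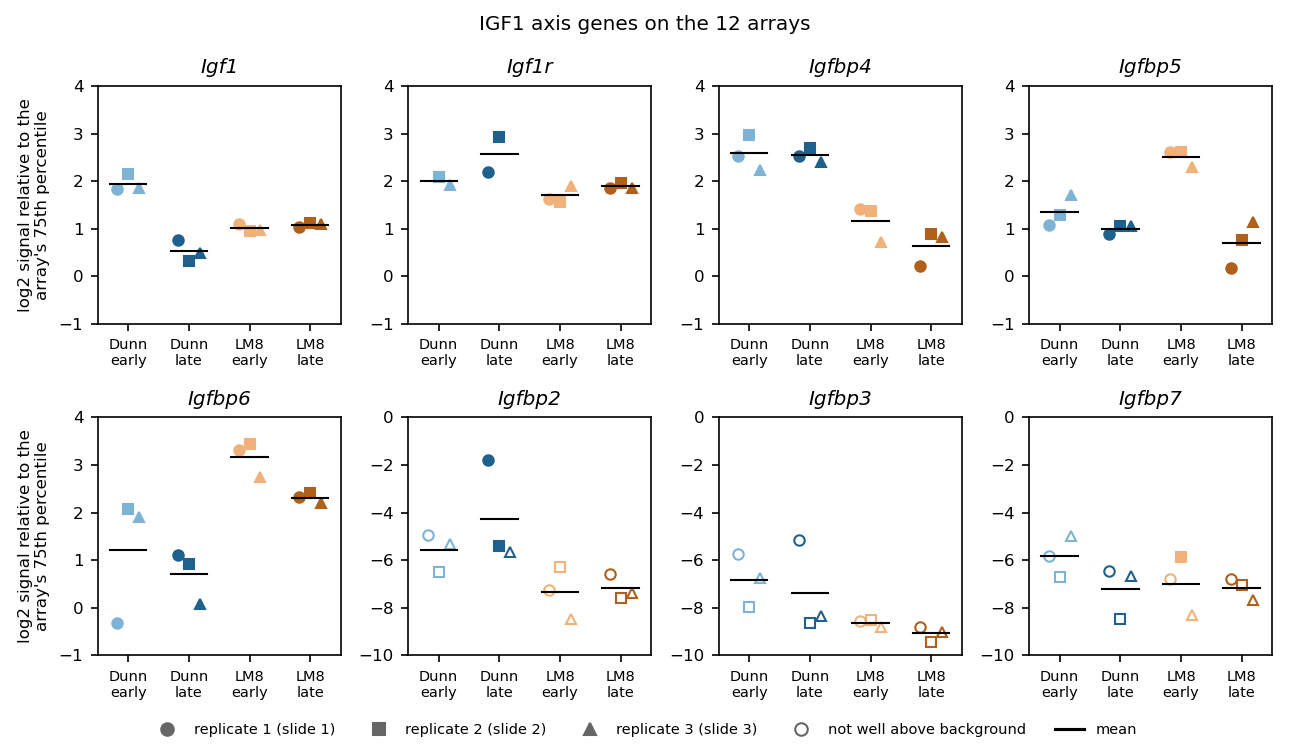
Log2 signal of the 8 genes relative to the 75th percentile of the array (y axis) in early and late Dunn and LM8 cells (x axis). Each symbol is 1 array, its shape gives the replicate and slide, open symbols were not well above background, and black lines are group means. Igf1 lay at 1.83 to 2.15 in early and 0.32 to 0.75 in late Dunn cells, Igfbp5 was brightest in early LM8 cells (2.30 to 2.62), and the y axes of the lower right 3 panels cover a dimmer range.

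The ligand gene Igf1 was dimmer on the 3 late than on the 3 early Dunn arrays, a difference that did not pass adjustment, while the early and late LM8 arrays overlapped. Its signal was 1.83, 2.15 and 1.85 on the 3 early Dunn arrays (1.94 ± 0.18, SD, n = 3) and 0.75, 0.32 and 0.48 on the late ones (0.52 ± 0.21, n = 3). In LM8 cells it was 1.09, 0.95 and 0.98 at early passage (1.01 ± 0.07, n = 3) and 1.03, 1.12 and 1.09 at late passage (1.08 ± 0.04, n = 3). In Dunn cells late minus early was -1.42 (standard error 0.30), with -1.08, -1.82 and -1.37 on the 3 slides. The unadjusted p in limma was 0.00368 and the adjusted p was 0.489, so Igf1 met the study's own level of over 2-fold at p under 0.05 and did not pass adjustment over all probes. Without scaling of the arrays the difference was -0.46 (adjusted p = 0.799), and Igf1 no longer met that level. The median difference of all genes between these arrays was -0.34, and relative to it Igf1 stood at -1.08. In LM8 cells the difference between passages was 0.07 (adjusted p = 0.823). The arrays read the RNA of a whole culture, so that fewer expressing cells and less RNA per cell cannot be told apart.

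The interaction term, the late minus early difference of LM8 minus that of Dunn in a fit of the 12 arrays together, was 1.5 (standard error 0.29, unadjusted p = 0.000443, adjusted p = 0.0762 in limma). It missed the threshold, and it kept its sign under 21 of 21 alternative settings with adjusted p between 0.0101 and 1 (0.048 without late Dunn replicate 1, where 1.17% of all genes passed). A further 3 probes read Igf1. After scaling, the Dunn difference on these was -1.45, -0.85 and -1.36, lower on each of the 3 slides for each probe. The LM8 difference was -0.24, 0.05 and 0.24. All probes share the scaling of an array, so they are not independent of each other. Before scaling, the slide 1 signals of these 3 probes were 65.3, 28.3 and 482 in early Dunn cells. In late Dunn cells they were higher, at 69.8, 41 and 500. Probe A_55_P2085974 was also higher on slide 3 (60.3 early, 94.6 late), and the remaining slide values were lower. The -0.85 came from probe A_55_P2085974, which was well above background on 2 of 3 arrays in each Dunn group.

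**Figure D2:**
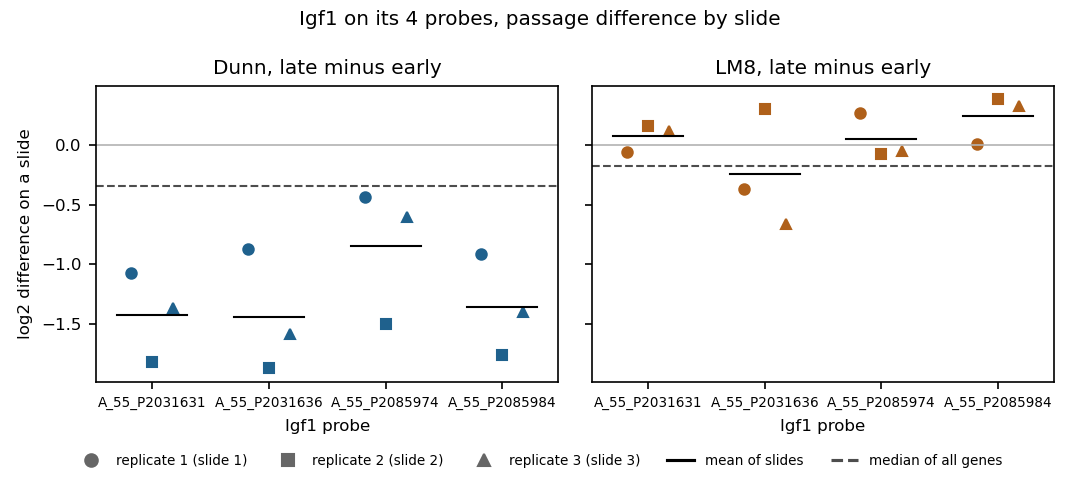
Late minus early log2 difference of Igf1 (y axis) on its 4 probes (x axis) in Dunn (left) and LM8 cells (right). Symbols are the 3 slides, black lines their mean, and the dashed line is the median of all genes. On the scaled signal all 12 Dunn values lie below 0, and the LM8 values lie on both sides of it.

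Between the lines, early LM8 minus early Dunn was -0.93 for Igf1 (standard error 0.29, adjusted p = 0.0777 in limma). The median in that comparison was -0.76 over all genes and -0.50 over the 8206 genes well above background on all arrays. In late cells LM8 minus Dunn was 0.56 (standard error 0.22, adjusted p = 0.246), with a median of all genes of -0.55. The other 3 probes gave -0.23, 1.18 and 1.18 in late cells, so they differed in sign and size. In early cells the other 3 probes gave -1.43, 0.29 and -0.42, and the early value turned to 0.54 without scaling of the arrays. No direction between the lines at early passage can therefore be given for Igf1.

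The receptor gene Igf1r passed the test in no comparison. Its spot was marked as an outlier by the scanner software on early Dunn replicate 1 and late Dunn replicate 3, and both values were left out. The remaining signals were 2.08 and 1.92 in early Dunn cells (2.0 ± 0.11, n = 2) and 2.20 and 2.94 in late Dunn cells (2.57 ± 0.52, n = 2). LM8 cells had 1.62, 1.56 and 1.90 at early passage (1.70 ± 0.18, n = 3) and 1.85, 1.97 and 1.86 at late passage (1.89 ± 0.07, n = 3). Late Dunn arrays were above all others, whereas early Dunn overlapped with late LM8 and late LM8 with early LM8. Late minus early was 0.57 in Dunn (standard error 0.49, adjusted p = 0.782) and 0.20 in LM8 (standard error 0.19, adjusted p = 0.549). LM8 minus Dunn was -0.30 in early cells (standard error 0.35, adjusted p = 0.518) and -0.67 in late cells (standard error 0.33, adjusted p = 0.278), and these signs turned to 1.13 and 0.09 without scaling of the arrays. With the outlier spots kept, the Dunn passage difference was 0.90 and the early LM8 minus Dunn difference was 0.15.

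Among the binding proteins, Igfbp5 showed the clearest passage difference in LM8 cells. Its signal in LM8 was 2.62, 2.61 and 2.30 at early passage (2.51 ± 0.18, n = 3) and 0.18, 0.76 and 1.14 at late passage (0.69 ± 0.48, n = 3). All early arrays were above all late arrays. Igfbp5 fell by 1.82 on the log2 scale, or 3.52-fold (standard error 0.28, adjusted p = 0.0271 in limma), with -2.44, -1.84 and -1.17 on the 3 slides and -1.64 relative to the median of all genes. In Dunn cells the signals were 1.08, 1.29 and 1.70 at early passage (1.36 ± 0.32, n = 3) and 0.88, 1.05 and 1.05 at late passage (1.00 ± 0.10, n = 3), a difference of -0.36 (standard error 0.31, adjusted p = 0.782) that was 0.60 without scaling. That the passage difference was larger in LM8 than in Dunn did not pass its own test (interaction -1.45, standard error 0.40, adjusted p = 0.304). On this scale the order of the groups was early LM8, early Dunn, late Dunn and late LM8, where late LM8 overlapped with both Dunn groups and the nearest early and late Dunn arrays were 1.08 and 1.05.

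The fall of Igfbp5 in LM8 kept its direction under 17 of 17 alternatives and passed under 10 of them. The settings that lost it included the replicate block (adjusted p = 0.109), no scaling (adjusted p = 0.228) and leaving out replicate 1 or 2 of either LM8 group (adjusted p = 0.0507 to 0.11). Between the lines, early LM8 cells had 1.15 more Igfbp5 signal than early Dunn cells (standard error 0.32, unadjusted p = 0.00894, adjusted p = 0.0777 in limma), which was 1.91 above the median of all genes. The 3 early LM8 arrays lay above the 3 early Dunn arrays, and the value was positive under 17 of 17 alternatives. In late cells LM8 minus Dunn was -0.30 (standard error 0.31, adjusted p = 0.486), and without scaling it was 0.57. The test of whether these line differences themselves differed is the interaction given above.

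Igfbp4 was lower in late LM8 than in late Dunn cells, a difference that passed the test. At early passage the difference did not pass, and its direction was lost without scaling of the arrays. Its signal was 2.54, 2.98 and 2.23 in early Dunn (2.58 ± 0.38, n = 3) and 2.53, 2.69 and 2.40 in late Dunn cells (2.54 ± 0.14, n = 3). It was 1.42, 1.37 and 0.71 in early LM8 (1.17 ± 0.39, n = 3) and 0.21, 0.88 and 0.82 in late LM8 cells (0.64 ± 0.37, n = 3). On this scaled signal every Dunn array was above every LM8 array, while the passages overlapped within each line. In late cells Igfbp4 was 3.74-fold lower in LM8 than in Dunn (log2 difference -1.90, standard error 0.27, adjusted p = 0.0297 in limma), with -2.32, -1.80 and -1.59 on the 3 slides and -1.35 relative to the median of all genes. In early cells LM8 minus Dunn was -1.41 (standard error 0.36, unadjusted p = 0.00649, adjusted p = 0.0777), or -0.66 relative to the median of all genes, and without scaling it was 0.05.

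For the late cells the lower Igfbp4 of LM8 held its direction under 17 of 17 alternatives and passed under 9. The adjusted p was 0.14 with the replicate block and 0.0534 when arrays were scaled on detected probes only. It was 0.328 without scaling, where the difference was -1.04. Leaving out 1 array at a time, it passed without late Dunn replicate 1 (adjusted p = 0.014) and in none of the other 5 cases, where it reached 0.14. The passage difference of Igfbp4 was -0.04 in Dunn (standard error 0.33, adjusted p = 0.999), with the sign turning under 4 other scalings or background corrections, and -0.53 in LM8 (standard error 0.29, adjusted p = 0.321).

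Igfbp6, which binds IGF2 in preference to IGF1, had its highest values in LM8 cells at both passages, and its differences did not pass adjustment. Signals in LM8 were 3.31, 3.43 and 2.75 at early passage (3.17 ± 0.36, n = 3) and 2.32, 2.41 and 2.21 at late passage (2.31 ± 0.10, n = 3). Dunn cells had -0.33, 2.08 and 1.91 at early passage (1.22 ± 1.34, n = 3) and 1.11, 0.92 and 0.07 at late passage (0.70 ± 0.55, n = 3). Every LM8 array was above every Dunn array, early LM8 was above late LM8, and the Dunn groups overlapped. LM8 minus Dunn was 1.95 in early cells (standard error 0.67, unadjusted p = 0.0244, adjusted p = 0.0778 in limma) and 1.61 in late cells (standard error 0.34, unadjusted p = 0.00385, adjusted p = 0.0812). Relative to the median of all genes these were 2.70 and 2.16. Both remained positive under 17 of 17 alternatives. The early Dunn replicate 1 stood far below the other early Dunn arrays, and without it the early difference was 1.17 (adjusted p = 0.104) in place of 1.95. The adjusted p was 0.0292 without early Dunn replicate 2, where 42.6% of all genes passed, and 0.0198 for the late difference without late Dunn replicate 1, where 9.7% did.

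With passage, late minus early Igfbp6 was -0.85 in LM8 (standard error 0.24, unadjusted p = 0.00903, adjusted p = 0.177) and -0.52 in Dunn (standard error 0.75, adjusted p = 0.902). On the slides the Dunn values were 1.44, -1.16 and -1.84, and without early Dunn replicate 1 the Dunn difference was -1.29. The direction in Dunn turned to 0.44 without scaling of the arrays.

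**Figure D3:**
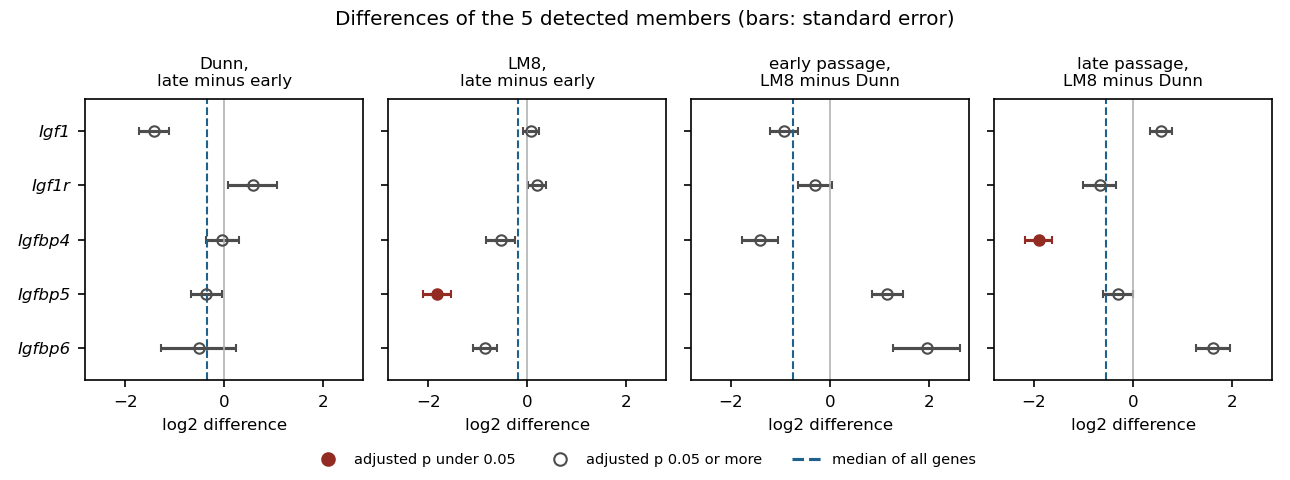
Log2 difference (x axis) of the 5 detected genes (y axis) in the 4 comparisons, with standard errors from limma as bars. Filled red points have an adjusted p under 0.05, which holds for Igfbp5 in LM8 (-1.82) and Igfbp4 between late cells (-1.90), and the dashed line is the median of all genes.

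The other 3 binding protein genes gave little signal. Igfbp3, the main carrier of IGF1 in serum, was well above background on 0 of 12 arrays, and Igfbp7, a low-affinity IGF binding protein, on 1 of 12 (early LM8 replicate 2). Igfbp2 was well above background on late Dunn replicates 1 and 2 only. Its signal was -1.80, -5.43 and -5.65 in late Dunn and -4.95, -6.51 and -5.33 in early Dunn cells, so replicate 1 alone stood out. In LM8 it was -7.28, -6.30 and -8.47 at early passage and -6.57, -7.60 and -7.37 at late passage. For a bound, the dim group was read at the lowest signal that counts as well above background. Its own signal was used where that was higher. The fitted log2 differences were -2.89 between late LM8 and late Dunn cells (adjusted p = 0.243 in limma) and 1.30 with passage in Dunn (adjusted p = 0.782). On group means these bounds were 5.89-fold lower in late LM8 than in late Dunn cells, and 1.33-fold higher in late than in early Dunn cells. They allow for the dim signals and not for the spread between arrays, and neither fitted difference passed the test. These bounds rest on late Dunn replicate 1, without which the fitted differences were -1.64 (adjusted p = 0.0429) in place of -2.89, and 0.06 in place of 1.30, and the latter was -0.65 with normexp background correction. A second Igfbp2 probe was well above background on late Dunn replicate 2 only, with a signal before scaling of 13.0. On late Dunn replicate 1 it was not well above background and read 25.7, against 216.8 for the first probe. The bound of the second probe between late cells was 1.83-fold lower in LM8.

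Counted over all 8 genes, 0 passed an adjusted p of 0.05 with passage in Dunn cells, where 0.00497% of all genes did. At over 2-fold and an unadjusted p under 0.05, 1 did (Igf1, lower), against 4.86% of all genes. In LM8 cells 1 passed (Igfbp5, lower), against 2.82% of all genes, and the same gene was the 1 counted at the unadjusted level, against 7.28%. Between early LM8 and Dunn cells 0 passed, against 4.54% of all genes. The unadjusted level counted 5 of the 8 there, against 36.7% of all genes: Igfbp5 and Igfbp6 higher and Igfbp2, Igfbp3 and Igfbp4 lower in LM8, where Igfbp2 and Igfbp3 were not well above background on any array of either group. Without scaling 2 were counted, Igfbp5 and Igfbp6, both higher, against 31.9% of all genes.

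Between late cells 1 passed (Igfbp4, lower in LM8), against 3.84% of all genes, and 3 met the unadjusted level (Igfbp6 higher, Igfbp2 and Igfbp4 lower), against 13.3%. For the interaction 0 passed, against 0.606% of all genes, and 2 met the unadjusted level (Igf1 above 0, Igfbp5 below), against 5.3%. The median difference of the 8 genes was -0.44 with passage in Dunn, beside -0.34 for all genes. It was -0.33 beside -0.18 in LM8, -1.04 beside -0.76 between early cells, and -0.49 beside -0.55 between late cells. For the interaction it was -0.35 beside 0.18, of opposite sign. Over the 8206 genes well above background on all arrays, the median was -0.30 with passage in Dunn and -0.09 in LM8. Between early cells it was -0.50, and between late cells -0.28. Differences taken relative to these medians would be lower than those given relative to all genes. Without late Dunn replicate 1, 3 genes passed between late cells (Igfbp2, Igfbp4 and Igfbp6), against 9.7% of all genes, and without early Dunn replicate 2, 5 passed between early cells, Igfbp4, Igfbp5 and Igfbp6 among them, against 42.6% of all genes. With 8 genes these shares and medians are a description only. The comparisons share groups, since every group enters both a passage and a line comparison.

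The wider pathway was read on 53 further genes in 6 lists. With passage in Dunn cells 0 of 53 passed, against 0.00497% of all genes, and in LM8 cells 3 passed (5.66%, against 2.82% of all genes), 1 higher and 2 lower. Between early cells 2 passed (3.77%, against 4.54%) and between late cells 1 (1.89%, against 3.84%), all lower in LM8. For the interaction 1 passed (1.89%, against 0.606%). With 1 to 3 calls these shares show nothing particular to the pathway. None of the 20 genes of the PI3K, Akt and mTOR arm and none of the 9 genes of the Ras and MAPK arm passed in any comparison. Of 6 other ligands, receptors and carriers 0 passed, and Igf2, Igfals, Igfbp1 and Igfbpl1 were well above background on 0 of 12 arrays.

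Among the receptor adaptors, Irs2, which couples the IGF1 and insulin receptors to PI3K, was brightest in early Dunn cells. Its signal was 0.01, -0.57 and 0.01 in early Dunn, -5.72, -6.08 and -5.64 in late Dunn, -4.08, -4.11 and -4.36 in early LM8 and -6.48, -5.30 and -5.83 in late LM8 cells. It was well above background on 3, 0, 3 and 2 of 3 arrays in these groups. All early Dunn arrays were above all other arrays. Irs2 was lower in early LM8 than in early Dunn cells (log2 difference -4.0, standard error 0.32, adjusted p = 0.0021 in limma), a call kept under 17 of 17 alternatives, the replicate block included (adjusted p = 0.029). With passage in Dunn the fitted late minus early difference was -5.63 (adjusted p = 0.0535), with a bound of at least 36.2-fold lower. In LM8 late minus early was -1.69 (adjusted p = 0.0563). The interaction was 3.94 (standard error 0.46, adjusted p = 0.00539). Grb14, an adaptor that dampens insulin receptor signalling, was lower in late than in early LM8 cells. The fitted log2 difference was -2.33 (adjusted p = 0.0478 in limma, 0.0633 with the replicate block), and the bound was at least 2.91-fold. The call was kept under 6 of 17 alternatives. With normexp background correction the log2 difference was -0.72 (adjusted p = 0.552) in place of -2.33. It was lost when any LM8 array other than early replicate 3 was left out (adjusted p = 0.0813 to 0.195).

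Among the binding protein proteases, Htra1, a secreted serine protease, was well above background on all 12 arrays. Its signal was 4.97, 4.59 and 5.26 in early Dunn, 4.64, 4.58 and 4.28 in late Dunn, 3.30, 3.01 and 2.66 in early LM8 and 3.61, 3.25 and 3.36 in late LM8 cells. On this scaled signal every Dunn array was above every LM8 array, as for Igfbp4. In early cells it was 3.86-fold lower in LM8 (log2 difference -1.95, standard error 0.34, adjusted p = 0.033 in limma, 0.084 with the replicate block), and in late cells the difference was -1.10 (standard error 0.23, adjusted p = 0.084). Relative to the median of all genes these were -1.19 and -0.54. The early call was kept under 8 of 17 alternatives and was lost without early Dunn replicate 3 or any early LM8 array (adjusted p = 0.112 to 0.172), while the difference without scaling was -0.48. Pappa2, a protease that cleaves IGFBP5 and IGFBP3, was well above background on 2 of 3 early and 1 of 3 late Dunn arrays, and on 2 of 3 early and 0 of 3 late LM8 arrays. The fitted log2 difference of Pappa2 was -2.61 between late and early LM8 cells (adjusted p = 0.0104 in limma). It was -2.78 between late LM8 and late Dunn cells (adjusted p = 0.0093, 0.109 with the replicate block). These fits use late LM8 signals that were not well above background. As bounds, Pappa2 was at least 1.38-fold and at least 1.55-fold lower in these 2 comparisons. The calls of Pappa2 were kept under 10 and 8 of 16 alternatives, and both were lost without late LM8 replicate 2 or 3 (adjusted p = 0.0561 to 0.0788). With the floor on dim signals the adjusted p was 0.169 with passage in LM8 and 0.199 between late cells. In Dunn cells late minus early was -2.30 (unadjusted p = 0.00571, adjusted p = 0.556), and the interaction was -0.31 (adjusted p = 1).

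In the growth hormone arm, Socs2, which limits growth hormone receptor signalling, rose with passage in LM8 cells. Its signal was -2.73, -2.51 and -3.06 in early and -1.51, -1.39 and -1.55 in late LM8 cells, without overlap. The rise was 1.28 on the log2 scale, or 2.43-fold (standard error 0.21, adjusted p = 0.0319 in limma, 0.0789 with the replicate block), kept under 7 of 17 alternatives and lost when any of the 6 arrays was left out (adjusted p = 0.0514 to 0.137). Dunn cells had -2.95, -3.15 and -3.49 at early and -1.45, -1.90 and -2.02 at late passage, also without overlap. Their difference was 1.41 (standard error 0.33, adjusted p = 0.569), and the interaction was -0.12 (adjusted p = 1).

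**Figure D4:**
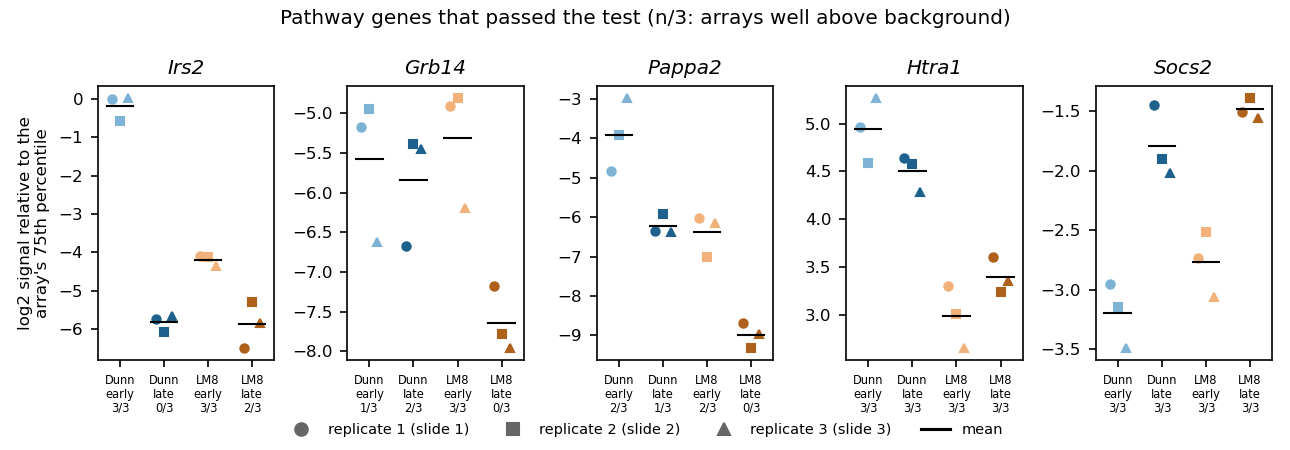
Log2 signal relative to the 75th percentile of the array (y axis, scaled per panel) of the 5 pathway genes that passed an adjusted p of 0.05 in a comparison. Symbols are single arrays by replicate and slide, lines are group means, and the numbers under each group count its arrays well above background. Irs2 in early Dunn cells (-0.57 to 0.01) lies above all other groups, and Htra1 lies higher in Dunn than in LM8 cells.

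The genes whose signal followed each detected gene most closely over the arrays were listed from 12491 genes by Pearson correlation, as a description without a test. The arrays share slides, lines and brightness, which alone can carry a correlation. For Igf1 they were Tmem64 (0.942) and Trmt61b (0.941), each over 12 arrays, and for Igf1r Hk2 (0.97, 9 arrays) and Gprin3 (0.958, 10 arrays). For Igfbp4 they were Nkx2-5 (0.969) and Snai1 (0.961). For Igfbp5 they were Ctsk (0.924), the bone matrix protease cathepsin K, and Ccn2 (0.888), a secreted matricellular protein. For Igfbp6 they were Smim5 (0.956) and Rab3a (0.934). None of the 8 genes was among the closest of another.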

How the data were processed

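RNA of 12 samples was hybridised to Agilent mouse 4x44k v2 arrays with a Cy3 label. The study's methods name TriReagent for the extraction, whereas the labels name RNeasy. The authors deposited the output of Agilent Feature Extraction 10.7.3 for each array, whose processed signal is the background-subtracted intensity of a spot without scaling between arrays. A deposited table of all arrays holds the same intensity, within 1% for 100% of spots. The quality flags used (well above background, saturated, outlier, control type) are those of the deposited files.

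The 8 genes and the pathway and marker lists were chosen with earlier results of these data known. Control spots and spots with an outlier flag were left out, spots of 1 probe were averaged, and the log2 of the 75th percentile of the array over its remaining spots was subtracted from each log2 intensity. Accessions matched 26581 of 39429 probes (67.4%) to 20144 genes of a RefSeq table of GRCm38, which was used for names, neighbours and upstream sequences only. A gene was read on its probe with the highest mean signal. Groups were compared by lmFit and eBayes of limma 3.58.1 in R 4.3.3 on the arrays of both groups, without a block, as the study's methods describe a 2-group analysis, and the interaction was fitted over all 12 arrays. P-values were adjusted over all probes by Benjamini-Hochberg. A gene was called at an adjusted p under 0.05, and also counted at the study's level of over 2-fold and an unadjusted p under 0.05. The named genes are the 8 genes, the 2 genes most correlated with each detected one, and pathway genes that passed. Only the group fit and the adjustment were tested on simulated data. The simulated noise was independent between arrays, without brightness differences, scaling, slide effects or a background floor. Plots were drawn with matplotlib.

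The alternatives were quantile normalization, the 75th percentile over probes detected on all arrays, normexp for the background (offset 50), the deposited table unscaled, dim signals set to a floor, dim probes filtered out, a joint fit of the 12 arrays, the replicate number (slide) as a block, the methods' t-test, the mean of a gene's probes, leaving out each array, and, chosen after the data were seen, keeping spots with an outlier flag. For normexp the median foreground signal stood in for the mean signal, which was not used here. Deviations from the group means correlated between same-numbered early and late Dunn arrays at 0.683, 0.641 and 0.222 on the 3 slides. For LM8 these were 0.281, -0.0104 and 0.133. Differently numbered arrays were not compared in this way, so these values alone do not show that the numbers pair the arrays. Precision is limited by the 3 arrays per group.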

Additional observations from a re-analysis of the deposited data

Results flagged for a closer look

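The fitted change of Irs2 with passage differed between the lines, which lay far apart at early passage and at similar dim levels at late passage. Late minus early was -5.63 in Dunn (standard error 0.33) and -1.69 in LM8 (standard error 0.32), and the interaction of line and passage was 3.94 (standard error 0.46, adjusted p = 0.00539 in limma over 12 arrays). It was 3.94 at an adjusted p of 0.0217 with the replicate block. It passed under 19 of 21 alternatives and ranged from 2.38 to 4.52, missing the threshold without scaling of the arrays (3.34, adjusted p = 0.0784) and with a floor on dim signals (3.49, adjusted p = 0.0582). Irs2 was well above background on 0 of 3 late Dunn arrays, so the level there is a bound, and on 2 of 3 late LM8 arrays. The late means were -5.81 in Dunn and -5.87 in LM8, and late LM8 minus Dunn was -0.06 (adjusted p = 0.916 in limma). The interaction therefore largely repeats the early LM8 minus Dunn difference of -4.0 and is not a separate result. The cause of the difference was not tested.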

How the results depend on the processing

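Of 597 recomputed differences of named genes, 490 kept direction and side of the threshold, 61 lost the call, 29 gained it and 17 reversed. Of 157 recomputed counts, 112 stayed within 1.5 times and 45 did not. The cause of these shifts was not tested. The array brightness, which rises from Dunn to LM8 and from early to late cells in both lines, limits the line comparisons and both passage comparisons. Without scaling, the median of all genes moved from -0.34 to 0.62 in Dunn, from -0.18 to 0.19 in LM8, from -0.76 to 0.70 between early cells and from -0.55 to 0.32 between late cells.

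The share of all genes called at the same setting stands in brackets. Genes called at an adjusted p under 0.05 were 0 with passage in Dunn and became 1 with the filter on dim probes (1.53%) and with 1 fit over all arrays (1.78%). In LM8 the 1 call became 0 without scaling (1.61%), with the replicate block (1.66%) and by the methods' t-test (1.17%). Between early cells the 0 calls became 2 by quantile normalization (2162 of 20130 genes), 1 with the percentile over detected probes (3.54%), 2 without scaling (9.86%), 7 with the floor (48.2%), 3 with the filter (23.6%), 3 with 1 fit (13.6%) and 1 by the methods' t-test (3.64%). Between late cells the 1 call became 2 by quantile normalization (8.63%), normexp (3.97%) or the filter (22.2%), and 0 with the percentile over detected probes (3.63%), without scaling (2.49%) or with the replicate block (0.387%). For the interaction the 0 calls became 1 by quantile normalization (1.31%) and with the filter (2.42%). At the study's level the 1 gene in Dunn became 0 without scaling (8.24%) and 2 with the replicate block (15.3%), and the 5 genes between early cells became 3 by quantile normalization (17.3%), with the filter (22.6%) or with 1 fit (29.9%), and 2 with the percentile over detected probes (17.9%), without scaling (31.9%) or by the methods' t-test (19.3%).

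Leaving out each array, calls ranged from 0 to 0 in Dunn, 0 to 1 in LM8, 0 to 5 between early cells (5 without early Dunn replicate 2, where 42.6% of all genes were called), 0 to 3 between late cells (3 without late Dunn replicate 1, where 9.7% were) and 0 to 1 for the interaction. At the study's level they ranged from 1 to 2 in Dunn, 1 to 2 in LM8, 3 to 5 between early cells and 2 to 4 between late cells. The replicate block, beyond the calls named, changed no call of the 8 genes.

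Reversed differences, none of which had passed the test, were as follows. In Dunn, Igfbp4 was 0.038 by quantile normalization, 0.23 with the percentile over detected probes, 0.11 with normexp and 0.92 without scaling, and from -0.22 to 0.16 when leaving out each array (above 0 without early Dunn replicate 2 or late Dunn replicate 3). There Igfbp2 was -0.65 with normexp, and without scaling Igfbp5 was 0.60 and Igfbp6 0.44. Between early cells without scaling Igf1 was 0.54, Igf1r 1.13 and Igfbp4 0.0546. Igf1r was also 0.21 with the percentile over detected probes and 0.15 with outlier spots kept. Between late cells without scaling Igf1r was 0.09 and Igfbp5 0.57. The interaction of Igfbp6 ranged from -0.77 to 0.44 when leaving out each array (above 0 without early Dunn replicate 1).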
